A study of Mus musculus with 6 samples.

Results

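Lipid droplets, the cell's triglyceride stores, were followed through 10 genes of the droplet coat and of lipolysis in mouse myocardium. The set was chosen by symbol, with earlier results of these data known, and all 10 were found among the 55401 gene identifiers of the files. The coat genes are the perilipins Plin2, Plin3, Plin4 and Plin5 and the droplet fusion genes Cidea and Cidec, and the lipolysis genes are Pnpla2, Lipe, G0s2 and Abhd5. The libraries came from male wild-type mice injected with PBS, the control group, or with STZ (streptozotocin), which destroys pancreatic beta cells and was used here to make the mice diabetic. Each group had 3 libraries, all labelled 8 weeks, a time whose starting point and relation to the animals' age are not stated. Whether each library is a different mouse is not stated either, so a p-value here reflects only variation among the libraries at hand, and that variation may be technical. The question was which genes differ in the diabetic heart.

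A cardiomyocyte keeps fatty acids it does not burn at once as triglyceride in small droplets, many of them beside mitochondria. Perilipins and CIDE proteins cover the droplet surface and govern access of lipases and the growth of the droplet. Release of fatty acids starts with adipose triglyceride lipase (Pnpla2), which the co-activator Abhd5 switches on and the inhibitor G0s2 switches off, and goes on with hormone-sensitive lipase (Lipe), which cleaves diacylglycerol. Fatty acids freed this way are fuel for mitochondria and ligands for PPAR nuclear receptors, of which several coat genes are known targets.

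The promoters of Plin4 and Plin5, neighbouring genes that were both higher in STZ hearts, of Pnpla2, the most abundant of the 10, and of Plin2, a classical PPAR target, are shown so that their control regions can be compared. They come from RefSeq promoter windows on GRCm38.p6, which run from 250 bases before to 50 bases after a start and were found for 9 of the 10 genes (12 windows). Each stretch is given 5′ to 3′ on the gene's strand, from 250 bases before the RefSeq start, and ends before that start and before any annotated exon. It spans chr4:86670061-86670309 for Plin2, chr17:56109804-56110032 for Plin4, chr17:56117597-56117798 for Plin5 (all 3 on the minus strand) and chr7:141454938-141455187 for Pnpla2 (plus strand). Capitals mark matches to the motifs described next.
Plin2: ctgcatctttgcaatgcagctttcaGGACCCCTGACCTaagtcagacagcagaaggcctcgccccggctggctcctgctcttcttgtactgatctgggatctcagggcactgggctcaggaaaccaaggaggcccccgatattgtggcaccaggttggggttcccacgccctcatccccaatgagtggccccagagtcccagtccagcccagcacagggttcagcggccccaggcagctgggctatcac
Plin4: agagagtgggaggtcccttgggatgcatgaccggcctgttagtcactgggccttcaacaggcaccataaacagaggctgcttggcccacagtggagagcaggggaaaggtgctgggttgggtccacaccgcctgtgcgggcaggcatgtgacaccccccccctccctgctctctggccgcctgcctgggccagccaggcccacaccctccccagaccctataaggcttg
Plin5: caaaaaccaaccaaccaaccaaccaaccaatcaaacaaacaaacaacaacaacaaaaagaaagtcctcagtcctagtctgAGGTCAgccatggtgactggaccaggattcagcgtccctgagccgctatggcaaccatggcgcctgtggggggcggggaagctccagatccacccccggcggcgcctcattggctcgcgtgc
Pnpla2: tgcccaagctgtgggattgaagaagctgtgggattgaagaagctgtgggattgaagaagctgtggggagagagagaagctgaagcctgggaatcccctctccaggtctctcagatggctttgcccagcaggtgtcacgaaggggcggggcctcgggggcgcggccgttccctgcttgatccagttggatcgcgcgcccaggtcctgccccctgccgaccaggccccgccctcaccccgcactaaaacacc

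4 motifs were searched on both strands of these windows. A direct repeat of the nuclear receptor half-site, AGGTCANAGGTCA with up to 2 mismatches, was found in 1 of the 12 windows, that of Plin2, where it began 225 bases before the start. Among all 32851 RefSeq windows, 3.86% held such a match. The half-site AGGTCA alone, which the repeat contains, occurred in windows of Plin2, Plin5 and Abhd5 (4 of 12 windows, against 16.3% of all), the E-box CACGTG in Plin2 and Lipe (2 of 12, against 7.15%) and the forkhead motif GTAAACA in a second Lipe start (1 of 12, against 3.65%). The E-box of Plin2 begins 4 bases before the start and runs past the end of the stretch shown. In the windows of Plin4 and Pnpla2 none of these letters were found. A match describes the letters of a window and says nothing of binding.

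Values were FPKM, fragments scaled to transcript length and to the mapped fragments of the library, so that levels can be compared between genes. Summed FPKM ranged from 531384 to 589719 over the 5 complete files. The number of fragments is not given in the sources used here, so the depth behind each value is unknown. For PBS replicate 3 the file breaks off after 7711 genes (13.9%). PBS replicates 1 and 2 were therefore fitted against the 3 STZ libraries, and PBS replicate 3 is given beside them for the 8 members it listed (not Cidec and Abhd5). In that fit 421 genes were higher and 251 lower of 11556 tested. The higher genes were 62.6% of the calls as deposited, 48.5% after median centring, 50.2% after quantile normalization and 73.8% on a TPM scale.

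5 genes of the set rose in STZ hearts: Lipe, Cidea, Plin4, Pnpla2 and Plin5. None fell, 4 others did not pass the threshold and Cidec was too low to test. The 9 tested members were each above 1 FPKM in every fitted library, so none entered the test through 1 group alone. The background over all tested genes was 5.82% past the limma threshold (adjusted p of 0.05), with 3.64% higher and 2.17% lower. The members' median log2 fold change was 0.93, beside 0.06 for all tested genes. Since the members were chosen with earlier results of these data known, their counts and median beside the background are a description only. Of the 8 members listed in all 6 files, 6 had every STZ library above every PBS library, where 26.1% of the 4811 tested genes listed there did so. Without PBS replicate 1, and likewise without PBS replicate 2, the calls of the 5 members were lost. Each of these fits kept a single PBS library, so its spread came from the STZ libraries alone. The log2 fold changes of the 5 ran from 0.926 (Plin5) to 1.497 (Lipe) without PBS replicate 1. Without PBS replicate 2 they ran from 0.938 (Plin5) to 1.366 (Lipe). In bulk tissue, fewer cells of a type and less RNA per cell cannot be told apart.

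**Figure D1:**
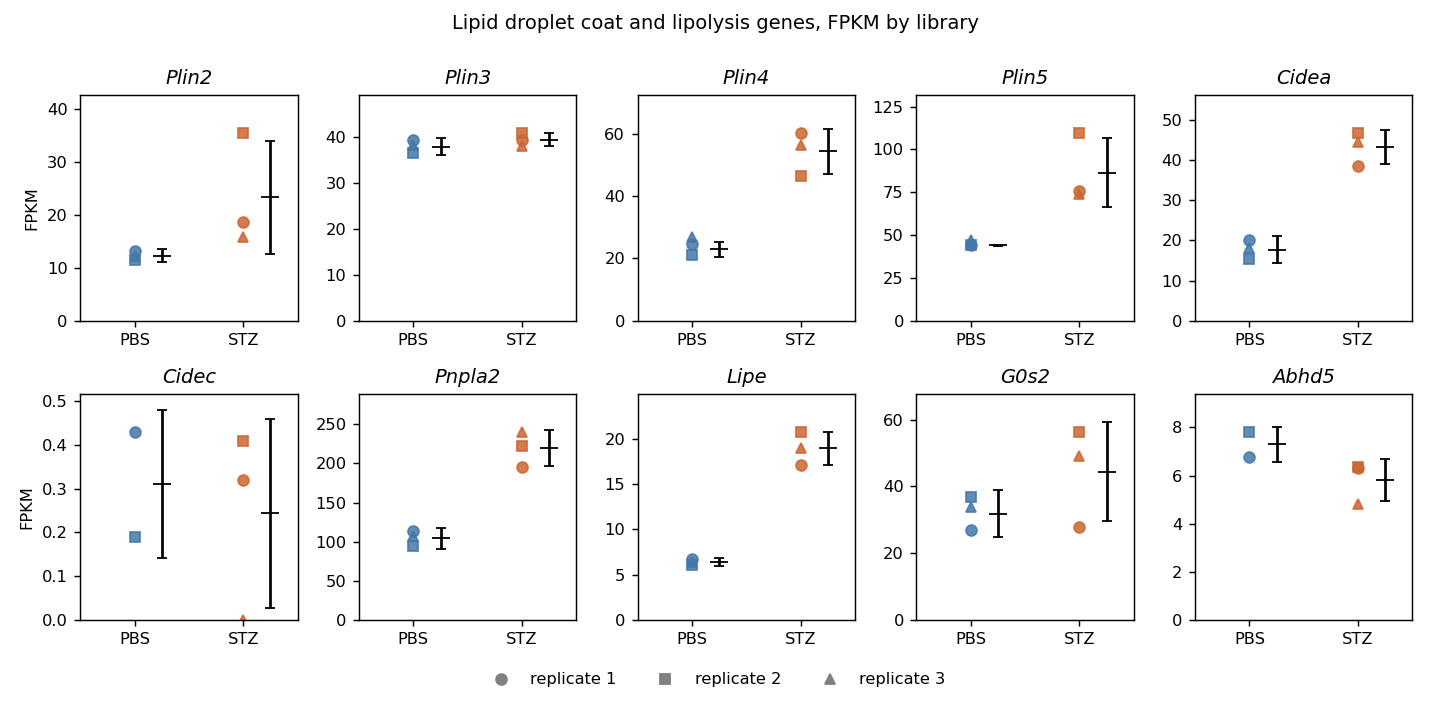
FPKM of each of the 10 genes (y axis, from 0) in PBS and STZ libraries, with 1 point per library and its shape giving the replicate number; black bars are mean and SD of PBS replicates 1 and 2 and of the 3 STZ libraries. Lipe, Cidea, Plin4, Plin5, Pnpla2 and Plin2 have all STZ points above all PBS points, while Plin3, G0s2 and Cidec overlap.

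**Figure D2:**
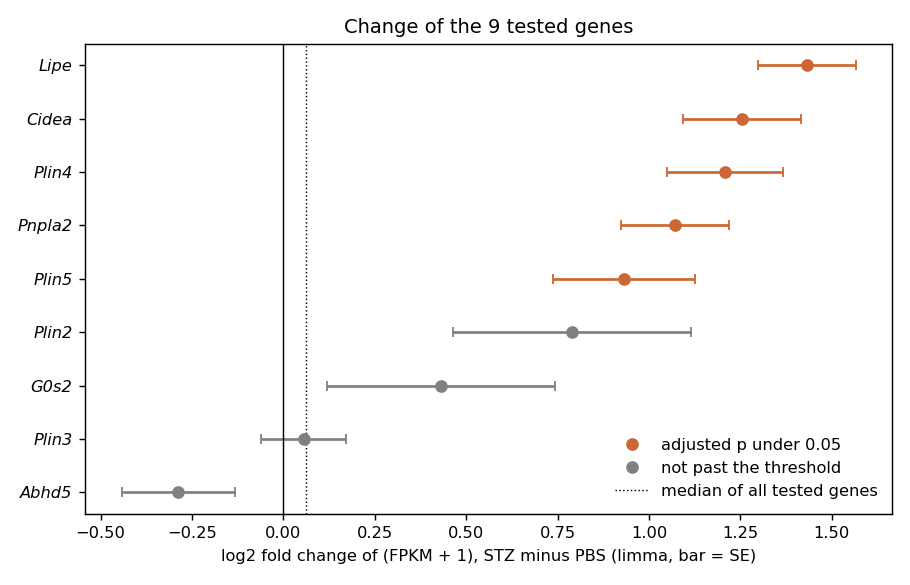
Log2 fold change on the log2(FPKM + 1) scale with its SE (x axis) for the 9 tested genes, STZ minus PBS, from limma. Lipe is highest at 1.43 and Abhd5 lowest at -0.29; the dotted line is the median of all tested genes, 0.06.

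Among the perilipins, the muscle and adipose coat proteins Plin4 and Plin5 rose, and Plin2 and Plin3 did not pass the test. Plin5 (ENSMUSG00000011305, chr17:56111601-56117596, GRCm38), which is known to tether droplets to mitochondria and to bind Pnpla2 and Abhd5, was at 43.93, 44.31 and 46.92 FPKM in PBS replicates 1, 2 and 3. It was at 75.75, 109.78 and 74.02 FPKM in STZ replicates 1, 2 and 3. All STZ values lay above the PBS values, and STZ replicate 2 stood highest. The mean went from 44.1 ± 0.269 (SD, n = 2) to 86.5 ± 20.2 FPKM (SD, n = 3). On the log2(FPKM + 1) scale the difference was 0.93 ± 0.20 (SE, limma adjusted p = 0.0485). The call was lost in 10 of 19 alternatives, among them without STZ replicate 1 (limma adjusted p = 0.0735) and without STZ replicate 3 (0.0624), and adjusted p ran from 0.00768 to 0.258 over the alternatives.

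Plin4 (ENSMUSG00000002831, chr17:56100591-56109803), a coat protein of adipocytes and striated muscle, was at 24.62, 21.16 and 26.89 FPKM in the PBS libraries and at 60.33, 46.30 and 56.47 FPKM in the STZ libraries. The groups were well apart, and here STZ replicate 2 was the lowest of its group. The log2 fold change was 1.21 ± 0.16 (SE, limma adjusted p = 0.0171). Plin2 (ENSMUSG00000028494, chr4:86648386-86670060), the widely expressed coat protein of small droplets, was at 13.14, 11.46 and 12.20 FPKM in PBS and at 18.61, 35.52 and 15.87 FPKM in STZ. The STZ values were all higher, but 1 of them was 2.24 times another, and the log2 fold change of 0.79 ± 0.33 did not pass (SE, limma adjusted p = 0.188). Leaving out STZ replicate 2 lowered it to 0.45.

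Plin3 (ENSMUSG00000024197, chr17:56277476-56292873), which shuttles between cytosol and nascent droplets, was at 39.22, 36.58 and 38.27 FPKM in PBS and at 39.37, 40.92 and 37.96 FPKM in STZ. The groups overlapped (log2 fold change 0.06 ± 0.12, SE, limma adjusted p = 0.791), and the sign turned with median centring (-0.01) and quantile normalization (-0.04).

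Summed over Plin2, Plin3, Plin4 and Plin5, perilipin transcripts came to 120.91, 113.51 and 124.28 FPKM in PBS and to 194.06, 232.52 and 184.32 FPKM in STZ. The STZ mean was 1.74 times that of PBS replicates 1 and 2, and no library of one group reached the other. The exact two-sided permutation test gave p = 0.2 over 10 splits of 5 libraries, and p = 0.1 over 20 splits of all 6, in each case the smallest it can give. Plin3 made up 32.4%, 32.2% and 30.8% of the sum in PBS and 20.3%, 17.6% and 20.6% in STZ. The share of Plin5 was 36.3%, 39.0% and 37.8% in PBS and 39.0%, 47.2% and 40.2% in STZ. That of Plin4 was 31.1% and 30.6% in STZ replicates 1 and 3 but 19.9% in replicate 2, within the PBS range of 18.6% to 21.6%. The makeup of the sum in STZ replicate 2 thus leaned to Plin5 and Plin2, and that of the other STZ libraries to Plin4.

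**Figure D3:**
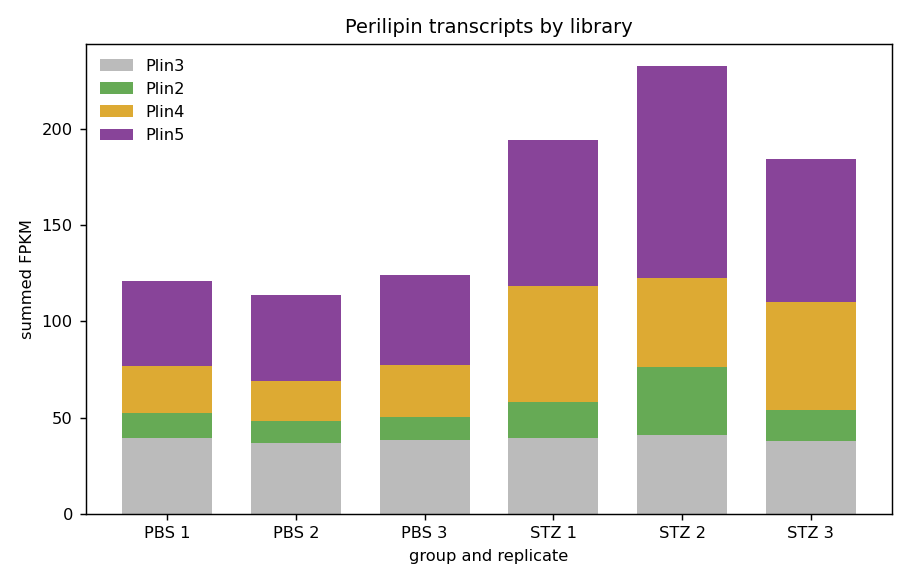
Stacked FPKM of Plin3, Plin2, Plin4 and Plin5 (y axis, from 0) in each of the 6 libraries (x axis). The grey Plin3 block keeps its height, between 36.6 and 40.9 FPKM, while the whole column goes from at most 124.28 in PBS to at least 184.32 in STZ.

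The CIDE genes differed in level by more than an order of magnitude. Cidea (ENSMUSG00000024526, chromosome 18, 67343604 to 67367785), whose protein joins droplets at contact sites and is best known from brown fat, was at 20.07, 15.33 and 18.07 FPKM in PBS and at 38.65, 46.88 and 44.62 FPKM in STZ. All 3 STZ libraries were above all PBS libraries (log2 fold change 1.25 ± 0.16, SE, limma adjusted p = 0.0169). Cidec (ENSMUSG00000030278, chr6:113424634-113435760), its counterpart in white fat, was at 0.43 and 0.19 FPKM in PBS replicates 1 and 2 and at 0.32, 0.41 and 0 FPKM in the STZ libraries. It stayed under 1 FPKM in all 5 and was not tested.

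Both lipases rose. Pnpla2 (ENSMUSG00000025509, chr7:141455198-141460743), which takes the first fatty acid from triglyceride, was at 113.70, 94.47 and 106.92 FPKM in PBS and at 195.66, 222.80 and 240.49 FPKM in STZ. Its log2 fold change was 1.07 ± 0.15 (SE, limma adjusted p = 0.0187). Lipe (ENSMUSG00000003123, chr7:25379527-25398710) was at 6.72, 6.05 and 6.40 FPKM in PBS and at 17.11, 20.80 and 18.96 FPKM in STZ. In both genes the groups lay far apart next to their spread. The log2 fold change of Lipe, 1.43 ± 0.13 (SE, limma adjusted p = 0.00806), was the largest of the set and the 78th largest rise of all 11556 tested genes. The exons of Lipe overlap 4732471J01Rik on the opposite strand over 15.6% of their length. That gene did not exceed 0.11 FPKM in any complete library.

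The regulators of Pnpla2 did not pass the test. G0s2 (ENSMUSG00000009633, chr1:193272161-193273217), the inhibitor, was at 26.80, 36.74 and 33.78 FPKM in PBS and at 27.95, 56.40 and 49.05 FPKM in STZ. STZ replicate 1 lay among the PBS values and the other STZ libraries above them (log2 fold change 0.43 ± 0.31, SE, limma adjusted p = 0.419). With 1 library left out the value ran from 0.21 (without PBS replicate 1) and 0.23 (without STZ replicate 2) to 0.65 (without PBS replicate 2) and 0.73 (without STZ replicate 1). Abhd5 (ENSMUSG00000032540, chr9:122351608-122381524), the co-activator, was at 6.77 and 7.82 FPKM in PBS replicates 1 and 2 and at 6.30, 6.35 and 4.82 FPKM in STZ. It was the single tested member with a negative sign (log2 fold change -0.29 ± 0.15, SE, limma adjusted p = 0.288), and the value was -0.18 without STZ replicate 3. All STZ values lay below both PBS values, which held for 18.8% of all tested genes. Its exons overlap A730085K08Rik on the opposite strand over 16.0% of their length, and that gene was listed at 0 in the 5 complete libraries.

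Levels of the regulators were also set against that of the lipase. G0s2 per Pnpla2 was 0.236, 0.389 and 0.316 in PBS and 0.143, 0.253 and 0.204 in STZ. PBS replicate 1 lay among the STZ values (exact two-sided permutation p = 0.4 without PBS replicate 3 and p = 0.2 with it). Abhd5 per Pnpla2, a ratio added after its values were seen, was 0.0595 and 0.0828 in PBS and 0.0322, 0.0285 and 0.0200 in STZ. These groups did not overlap, and the exact two-sided permutation p of 0.2 is the smallest that 2 against 3 libraries allow. Pnpla2 per Lipe, likewise added, was 16.9, 15.6 and 16.7 in PBS and 11.4, 10.7 and 12.7 in STZ (exact two-sided permutation p = 0.1 over 20 splits, the smallest it can give).

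**Figure D4:**
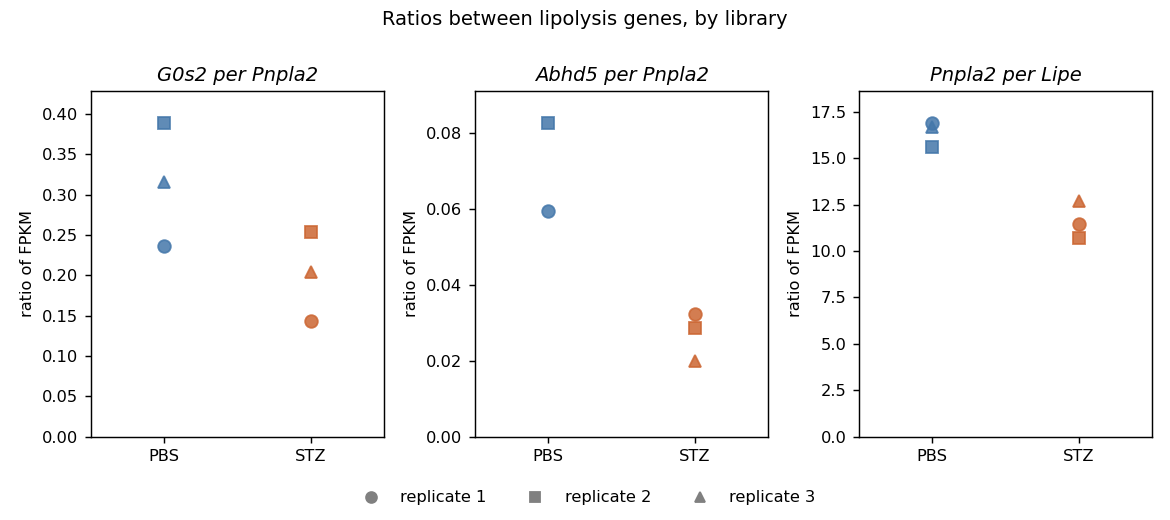
Ratios of FPKM (y axis, from 0) in each library: G0s2 per Pnpla2, Abhd5 per Pnpla2 and Pnpla2 per Lipe, with point shape giving the replicate number. G0s2 per Pnpla2 overlaps between groups, since PBS replicate 1 (0.236) lies below STZ replicate 2 (0.253); the other ratios are lower in every STZ library.

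By level, the order in PBS hearts was Pnpla2, Plin5, Plin3, G0s2, Plin4, Cidea, Plin2, Abhd5, Lipe and Cidec, from a mean of 105 FPKM for Pnpla2 to 0.31 FPKM for Cidec. Neighbours in this order whose ranges overlapped were Plin3 with G0s2 and G0s2 with Plin4. In STZ hearts Plin4 and Cidea stood before Plin3, and Lipe before Abhd5, and the ranges of Plin4, G0s2, Cidea and Plin3 formed an overlapping chain. The STZ ranges of Plin2 and Lipe overlapped too. Lipe was below Abhd5 in both PBS libraries that list both genes, though barely in PBS replicate 1 (6.72 and 6.77 FPKM). It was above Abhd5 in all 3 STZ libraries.

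The members also differed in how evenly they moved. The coefficient of variation among the 3 STZ libraries was 3.76% for Plin3, 9.73% for Lipe, 9.80% for Cidea and 10.3% for Pnpla2. It was 23.3% for Plin5, 33.2% for G0s2 and 45.6% for Plin2. STZ replicate 2 was the highest STZ library for 7 of the 9 tested members, where it was highest for 40.2% of all tested genes (STZ replicate 1 for 24.6% and replicate 3 for 35.2%). Among droplet genes outside the set, the droplet-associated dehydrogenase Hsd17b11 (25.91, 70.71 and 21.02 FPKM in STZ) and the monoglyceride lipase Mgll (5.55, 17.11 and 7.50 FPKM in STZ), which ends lipolysis, also stood highest in that library. Both were picked after their values were seen, and their list did not share the pattern throughout. Rab7, Rab18, Snap23 and Pnpla8 stood highest in STZ replicate 1, and Lipa and Aup1 in STZ replicate 3. The contribution of any property of STZ replicate 2 was not tested.

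3 perilipin genes lie within 1 region of chromosome 17. Plin4 and Plin5 are on the same strand with 1797 bases between them, and 159.88 kilobases separate Plin5 from Plin3, which is on that strand too. Next to Plin5, 2081 bases away, is Lrg1, which encodes a secreted leucine-rich glycoprotein. It was at 20.48 and 19.58 FPKM in PBS replicates 1 and 2 and at 40.37, 38.54 and 48.38 FPKM in STZ (log2 fold change 1.04 ± 0.14, SE, limma adjusted p = 0.0183). Of the 14 annotated genes from Plin4 to Plin3, 9 were tested and the calls were the adjoining Plin4, Plin5 and Lrg1. Sema6b, next in line, had a log2 fold change of 0.87 that did not pass (limma adjusted p = 0.120), and the 4 tested genes between it and Plin3 ran from -0.26 to 0.07.

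The genes whose profile over the 5 fitted libraries was nearest to that of Lipe, by Euclidean distance of log2(FPKM + 1) from the PBS mean, were Rpl3, Nras and Rbm3, at distances of 0.16, 0.24 and 0.26. They are a ribosomal protein, a small GTPase and a cold-inducible RNA-binding protein. Nras was at 0.97 and 1.11 FPKM in PBS replicates 1 and 2 but at 3.39 FPKM in PBS replicate 3, against 3.75, 4.54 and 4.10 FPKM in STZ. Its likeness to Lipe therefore does not extend to the PBS library outside the fit.

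The lists of neighbouring steps had few calls, which can be read against the 3.64% higher and 2.17% lower among all tested genes. Their counts of an unadjusted p under 0.05 can be read against 3074 of all 11556 tested genes. Triglyceride synthesis and droplet assembly came first. Of 18 listed genes of these steps 17 were in the files and 15 were tested with limma. 0 rose and 2 fell, 5 had an unadjusted p under 0.05, and the median of the list was 0.004 on the log2 scale. Lpin1, the phosphatidate phosphatase that makes diacylglycerol, fell from 18.67, 15.84 and 16.96 FPKM in PBS to 7.65, 7.14 and 7.28 FPKM in STZ (log2 fold change -1.12 ± 0.13, SE, limma adjusted p = 0.0117). Agpat1, an acyltransferase one step earlier, was at 20.17 and 18.41 FPKM in PBS replicates 1 and 2 and at 12.56, 9.37 and 11.87 FPKM in STZ. It passed narrowly (log2 fold change -0.73 ± 0.16, SE, limma adjusted p = 0.0498) and was lost in 12 of 17 alternatives, without any 1 of the 5 libraries among them. The abundant genes of the list did not pass. Dgat2, which adds the last fatty acid, had a log2 fold change of 0.36 and the acyl-CoA synthetase Acsl1 of 0.13. The droplet-forming muscle protein Fitm1 had -0.63, with 74.70, 80.81 and 84.76 FPKM in PBS and 43.41, 46.63 and 61.16 FPKM in STZ. For Fitm1 the limma adjusted p was 0.0857, and it was 0.0322 with PBS replicate 3 added and 0.0405 without STZ replicate 3.

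Of 22 other lipases and droplet-associated proteins 19 were tested with limma. 1 rose and 0 fell, 5 had an unadjusted p under 0.05, and the median was -0.03. Hilpda, a second protein inhibitor of Pnpla2, went from 1.60 and 2.12 FPKM in PBS replicates 1 and 2 to 3.42, 4.74 and 4.40 FPKM in STZ (log2 fold change 0.86 ± 0.16, SE, limma adjusted p = 0.0404). The call was lost without any 1 of PBS replicates 1 and 2 and STZ replicates 2 and 3 (limma adjusted p between 0.0765 and 0.263). Hsd17b11 had the largest log2 fold change of this list, 1.96 ± 0.48 (SE), on 7.75, 8.15 and 6.72 FPKM in PBS and the uneven STZ values given above. It did not pass (limma adjusted p = 0.0698), and passed without STZ replicate 2 (0.0251) or with PBS replicate 3 added (0.0260). The vesicle GTPase Rab7 and the carboxylesterase Ces1d, abundant members of the list, had log2 fold changes of 0.17 and -0.33 that did not pass.

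In the list of the hormonal control of lipolysis, through beta-adrenergic receptors, cyclic AMP and protein kinase A, 14 of 18 genes were tested with limma. 1 rose and 0 fell, 2 had an unadjusted p under 0.05, and the median was 0.06. The adenylyl cyclase Adcy6, which makes cyclic AMP, went from 30.06, 29.19 and 32.32 FPKM in PBS to 53.33, 57.74 and 54.75 FPKM in STZ (log2 fold change 0.88 ± 0.11, SE, limma adjusted p = 0.0169). Its partners Gnas (0.27), Prkaca (-0.14) and Prkar1a (-0.27) did not pass. As for the members, the calls of Lpin1, Adcy6 and Lrg1 were lost without PBS replicate 1 or 2, with limma adjusted p between 0.0805 and 0.154.

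**Figure D5:**
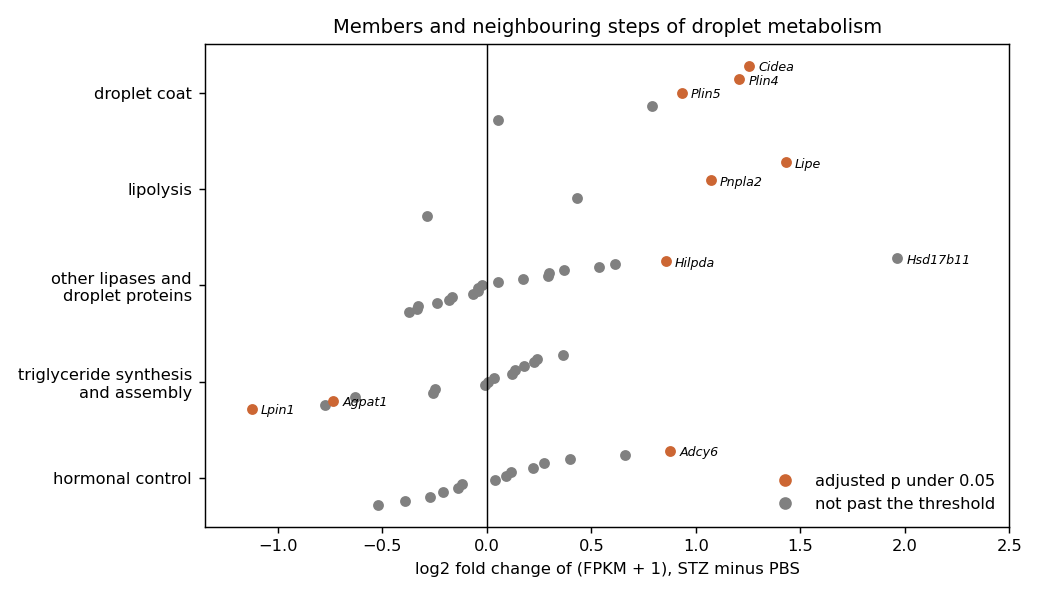
Log2 fold change on the log2(FPKM + 1) scale (x axis) of each tested gene in the droplet coat and lipolysis genes and in 3 lists of neighbouring steps (rows; vertical offset within a row only separates points). Genes past the threshold are orange and named; the grey Hsd17b11, at 1.96, did not pass.

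Several members are also adipocyte genes, so markers of fat tissue were read beside them. Of the 15 listed adipocyte markers, 10 stayed under 1 FPKM in all 5 complete libraries. Adipoq was between 0.31 and 0.36 FPKM in PBS replicates 1 and 2, listed at 0 in PBS replicate 3 and between 0 and 0.28 FPKM in STZ, and Plin1, the perilipin of adipocytes, reached at most 0.09 FPKM. Lep, Ucp1 and Tshr were listed at 0 in the 5 complete libraries. Summed over the 13 adipocyte markers that are not members, the level was 18.41 to 21.25 FPKM in PBS and 9.47 to 12.47 FPKM in STZ. That sum was carried by Thrsp (10.42 and 10.09 FPKM in PBS replicates 1 and 2), Slc36a2 and Cfd. The part of fat tissue in the members' values was not tested. Of 15 listed adipocyte markers 4 were tested, with 1 positive and 3 negative log2 fold changes. An unadjusted p under 0.05 with limma was found for 3 of the 4, and for 3074 of all 11556 tested genes. Lipe rose, and the amino acid transporter Slc36a2 fell from 4.86, 5.46 and 6.24 FPKM to 2.21, 1.22 and 1.98 FPKM (limma adjusted p = 0.0268, and 0.0575 without STZ replicate 3). This call too was lost without PBS replicate 1 or 2. Cfd was at 3.71 and 1.74 FPKM in PBS replicates 1 and 2 and at 1.26, 0.77 and 0.18 FPKM in STZ. It did not pass (log2 fold change -1.10 ± 0.34, SE, limma adjusted p = 0.108), and neither did Thrsp (-0.33, limma adjusted p = 0.311).

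The tissue label was met by cardiac genes: the 8 cardiomyocyte markers summed to 14947 to 15638 FPKM in PBS replicates 1 and 2 and to 9761 to 12342 FPKM in STZ. With limma 1 of the 8 fell past the threshold and 0 rose. Of the 8, 7 had a negative log2 fold change and 5 an unadjusted p under 0.05, with a list median of -0.46. Among all 11556 tested genes, 3074 had an unadjusted p under 0.05 with limma, the background for this and the following lists. The 10 endothelial markers summed to 465.8 to 476.3 FPKM in PBS and 703 to 840 FPKM in STZ, and 2 of the 10 rose, the fatty acid-binding protein Fabp4 and the lipase anchor Gpihbp1. Most of the difference in the sum lay in Fabp4 and in the fatty acid transporter Cd36, which did not pass (0.63 on the log2 scale, limma adjusted p = 0.0508). The endothelial receptors Kdr (-0.17), Tie1 (-0.11) and Tek (-0.10) and the cadherin Cdh5 (0.14) did not pass either. Nor did Emcn (0.24), Pecam1 (0.40) and Egfl7 (0.49), and in Pecam1 and Egfl7 every STZ value lay above every PBS value. Of the 10 endothelial markers 7 had a positive sign, with a list median of 0.32. An unadjusted p under 0.05 with limma was found for 5 of them. The calls of Fabp4 and Gpihbp1 were lost without PBS replicate 1 or 2 (limma adjusted p between 0.110 and 0.140). Of 9 neutrophil markers 3 were tested and passed upward. Retnlg did not exceed 0.46 FPKM in any PBS library and entered the test only through the STZ libraries, where it was high, so its call was tied to the filter. S100a8 and S100a9 were above 1 FPKM in all 5 libraries. The neutrophil list summed to 3.66 to 8.26 FPKM in PBS and 43.0 to 63.1 FPKM in STZ. Fibroblast, macrophage and skeletal muscle markers had 2 of 8, 0 of 8 and 2 of 2 tested genes falling and 0 rising. In the atrial list 0 of 4 passed with limma, and 1, Nppa, had an unadjusted p under 0.05 with a positive sign. The cardiomyocyte gene that fell, Actc1, and the skeletal muscle gene Myl1 were lost in 7 and 12 of 17 alternatives. In the macrophage list 2 of the 8 had an unadjusted p under 0.05 with limma, and in the fibroblast list 5 of the 8. The fibroblast list was split, with 4 positive and 4 negative log2 fold changes. The part of any of these cells in the members' values was not tested.

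The atrial gene Myl7 varied within both groups, at 262, 37.9 and 0.21 FPKM in PBS replicates 1, 2 and 3 and at 357, 73.7 and 0.28 FPKM in STZ replicates 1, 2 and 3. Its order by replicate number was the same in both groups, and Myl4 and Sln followed the same order in the 5 complete libraries. Nppa, the other gene of the atrial list, did not follow it. It was at 996 and 251 FPKM in PBS replicates 1 and 2 and at 2864, 876 and 1591 FPKM in STZ. The log2 fold change of Nppa was 1.66, where those of Myl7, Myl4 and Sln were -1.64, -1.20 and -1.31. The part of atrial tissue in the members' values was not tested. PBS replicate 3 lay between PBS replicates 1 and 2 for 6 of the 8 members it listed, and above both for Plin4 and Plin5. Mitochondrially encoded genes took 47.1% to 47.3% of all FPKM in PBS replicates 1 and 2 and 42.0% to 45.5% in STZ. Lipe, Cidea, Plin4 and Pnpla2 still passed when libraries were rescaled without those genes, and Plin5 did not (limma adjusted p = 0.0622).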

How the data were processed

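RNA was measured by poly(A) RNA sequencing of 6 myocardium libraries, with a U-labelled second cDNA strand per the labels' protocols. The deposited values are FPKM, as the file headers name them, with 2 decimals. Per the submitters' processing notes, cutadapt 1.9, HISAT2 2.0.4 and StringTie 1.3.4d were used with GRCm38. Annotation release, strand setting and filters were not given in the sources used here, so reads of overlapping genes could be shared. Fragment counts were not used and depth is unknown.

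Identifiers were matched to GENCODE release M21 of the same build (55141 of 55401 had a symbol). Libraries listing under 50% of the genes were left out of the fit. A gene was tested if 2 or more fitted libraries reached 1 FPKM, on log2(FPKM + 1), a scale that understates the change of low genes, with limma 3.58.1 in R 4.3.3 (eBayes with trend, two-sided, Benjamini-Hochberg over all 11556 genes, threshold 0.05). No covariate was used. Sums and ratios were tested with exact permutation tests. On simulated data for this comparison, over 11556 genes, recovery was 55% for a log2 change of 1 and 93% for a log2 change of 2, with 5.13% false among the calls and 0 calls in data without any change. The changed genes were drawn only from the more abundant of these genes and the noise was normal, so recovery among low genes is not given. The noise was also independent between genes, so variation that many genes of a library share was left out. The share of false calls therefore holds for the simulated data only.

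The members and gene lists were chosen with earlier results of these data known. Named are the 10 members, up to 4 called genes of each other list, the 3 most abundant others of each list of droplet metabolism, and the 3 genes nearest to the member with the largest change. Mgll, Hsd17b11 and the neighbours of Plin5 were named after their values were seen. Of the marker lists, called genes are given as counts unless a result turns on them. Ldaf1 was the listed symbol with no match. Alternatives were smaller pseudocounts (0.1, 0.5), dropping the low-value filter or raising it to 5 FPKM, TPM, median centring, quantile normalization, rescaling without mitochondrial genes, eBayes without trend or robust, the replicate block, each library left out and PBS replicate 3 added. Fits on the genes of all 6 files, with and without the block, were added after seeing the data, as were the exact tests of sums and ratios with PBS replicate 3.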

Additional observations from a re-analysis of the deposited data

How the results depend on the processing

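Of the 5 members that rose, Plin5 was the least stable. Lipe passed in 16 of 19 alternatives, Cidea, Plin4 and Pnpla2 in 15 each and Plin5 in 9, and the sign was positive in all of these. With no filter on low values 81 genes passed in place of 672, among them 1 member (Lipe). With 1 library left out, between 24 and 398 genes and between 0 and 5 members passed. Adding PBS replicate 3 where listed gave 1169 genes and again 5 members. With the replicate number as a block 64 genes and 0 members passed. An unadjusted p under 0.05 was then found for 6 of the 9 tested members and for 2675 of all 11556 genes. In that fit STZ replicate 3 had no partner, and the log2 fold changes were those of the fit without it (Lipe 1.43 in both). Without STZ replicate 3 and with no block, 398 genes and 4 members passed. The loss of that library was therefore only a part of the loss of calls with the block. On the genes listed in all 6 files, 987 of 4824 genes passed without the replicate block and 754 with it, each time with 5 of 8 members. Deviations from the group mean correlated by 0.176, -0.0495 and 0.151 between libraries of the same number over 4824 genes. The labels give no batch, and the libraries were not treated as paired. Deviations within a group of 3 sum to 0 for each gene, so these correlations depend on one another and cannot settle pairing. STZ replicates 1 and 3 correlated best with their own number and STZ replicate 2 with PBS replicate 1 (0.0881), a hint from the data and not from the design. Plin3 turned sign with median centring (-0.0137) and quantile normalization (-0.0419), and passed in neither. The difference in G0s2 per Pnpla2 lay between -0.189 and -0.0357 and that in summed perilipin FPKM between 72.0 and 96.1 with 1 library left out. Plin2 and G0s2 passed in 0 of 19 alternatives, with a coefficient of variation among the STZ libraries of 45.6% and 33.2%. Size alone did not decide a call. Actc1 passed in the main fit at -0.70, with a coefficient of variation of 10.1%, while Plin2 at 0.79 did not. There were 2 or 3 libraries per group and no fragment counts.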

Other observations

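Agpat2, an acyltransferase of triglyceride synthesis, was at 16.72 and 17.65 FPKM in PBS replicates 1 and 2, at 8.14 FPKM in PBS replicate 3 and at 16.52, 27.04 and 19.13 FPKM in STZ. The insulin receptor gene Insr, whose signal restrains lipolysis, was between 2.71 and 3.22 FPKM in the 3 PBS libraries and at 12.31, 4.54 and 2.31 FPKM in STZ, with STZ replicate 1 far above the others. The lysosomal lipase Lipa, which degrades lipid delivered to lysosomes, was at 2.27, 2.34 and 2.35 FPKM in PBS and at 3.80, 3.50 and 4.12 FPKM in STZ, with no overlap (log2 fold change 0.54, limma adjusted p = 0.0557). These 3 genes were chosen after their values were seen.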
